A study of Mus musculus with 6 samples.

Results

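The 9 genes described here encode the Hsp90 chaperones of the cytosol and mitochondria and the proteins that work with them: Hsp90aa1, Hsp90ab1, Trap1, Ahsa1, Stip1, Ptges3, Cdc37, Fkbp4 and Chordc1. They were taken by symbol from the 37991 Ensembl genes counted in each library, where each symbol matched 1 gene. Members were chosen by symbol, but selected on earlier sight of their CPM in Rroid deficient and wildtype libraries, so the differences below describe the 6 libraries and are given without a test of their own. Hsp90 is a dimeric, ATP-driven chaperone that acts late in folding, on kinases, steroid receptors and other proteins that are already partly folded. Co-chaperones deliver these clients, set the pace of ATP hydrolysis or stabilise the closed dimer. Heat shock factor 1 induces many chaperone genes when unfolded proteins accumulate, and in lymphocytes Hsp90 clients include kinases of antigen and cytokine receptor signalling.

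The cells were CD27+ CD11b+ natural killer (NK) cells, innate cytotoxic lymphocytes, from mouse spleen on the C57BL6 background. RNA was sequenced from 3 Rroid deficient and 3 wildtype libraries. Rroid is a long noncoding RNA transcribed from regulatory DNA near Id2, and the comparison asks how its loss alters expression in these cells. The age and sex of the mice, and how the deficient allele was made, are not stated in the labels. Nor do they say whether each library came from its own mouse, so errors and p-values cover the spread between libraries alone, which may be technical.

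Reads assigned to genes ranged from 6146465 to 7363793 in Rroid deficient libraries and from 5823626 to 9216430 in wildtype libraries. The annotation lists no gene named Rroid, and its level was not analysed here. Id2, its neighbour, had 38.9, 66.7 and 81.2 CPM (reads relative to library size, with TMM scaling) in Rroid deficient libraries 1 to 3, against 468, 338 and 341 CPM in wildtype libraries 1 to 3. Libraries 1 of both genotypes stood apart, with 5.57% (Rroid deficient) and 5.63% (wildtype) of tested genes at a count of 0, against 0.23% to 2.43% in the other 4. The NK cell label was checked on 10 marker genes, whose summed level was 8461 to 8579 CPM in Rroid deficient and 10424 to 12863 CPM in wildtype libraries, with none of the markers at 0 in all libraries. In 3 of the 10, Gzma, Klrk1 and Klrb1c, every Rroid deficient library lay below every wildtype library, where 6.33% of all tested genes lay so. Gzma, which encodes a granule protease, took the largest part of the sum, with 2315, 2726 and 2639.9 CPM in Rroid deficient libraries, against 5496, 3917 and 4090.1 CPM in wildtype libraries. Of 10 T cell markers, 3 were tested. Cd3g and Cd3d were higher in every Rroid deficient library, where 6.03% of all tested genes lay so. Together they made up most of the sum of the T cell markers in those libraries. The summed level was 91.7 to 147 CPM in Rroid deficient and 17.2 to 24.7 CPM in wildtype libraries. The other T cell markers did not follow. Cd3e had 0 reads in every Rroid deficient library, and Trac overlapped between the groups. Cd4 and Cd8b1 had reads in wildtype 1 alone (57 and 37). Cd5 had at most 4 reads and Themis at most 1 in any library, and Cd6 and Cd8a were at 0 throughout. Of 8 B cell markers, 2 were tested. Cr2 lay higher in every Rroid deficient library, and Pax5 and Blk were at 0 throughout. The summed level of the B cell markers was 9.63 to 52.8 CPM in Rroid deficient and 7.94 to 11.6 CPM in wildtype libraries. Myeloid markers (10 genes, 3 tested) summed to 401 to 469 CPM in Rroid deficient and 422 to 504 CPM in wildtype libraries. Nearly all of this came from Itgax, which NK cells also express. Cd68 lay higher in every Rroid deficient library, and Cd14, S100a8 and Clec7a were at 0 throughout. Erythroid markers (7 genes, 2 tested) summed to 1.47 to 7.19 CPM in Rroid deficient and 8.48 to 19.8 CPM in wildtype libraries. Alas2 was lower in every Rroid deficient library, where 6.33% of all tested genes lay so, and Klf1 was at 0 throughout. The part of these markers in the results below was not tested. In bulk RNA, more cells of a type and more RNA per cell cannot be told apart.

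Among the chaperones themselves, the 2 cytosolic Hsp90 genes were higher in every Rroid deficient library and the mitochondrial one was not. Hsp90aa1 (ENSMUSG00000021270, chromosome 12) encodes the stress-inducible cytosolic Hsp90. It had 185, 272 and 337 CPM in Rroid deficient libraries 1 to 3, against 43.7, 124 and 120.2 CPM in wildtype libraries 1 to 3. All Rroid deficient libraries lay above all wildtype libraries, with wildtype 1 far below the other wildtype libraries. The fitted log2 fold change was 1.46 (SE 0.39, 95% interval 0.60 to 2.33), or 2.76-fold, and 1.10 without wildtype 1.

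Hsp90ab1 (ENSMUSG00000023944, chromosome 17), the constitutive cytosolic Hsp90, had 1008, 1085 and 1042 CPM in Rroid deficient libraries, against 531, 779 and 722 CPM in wildtype libraries. The Rroid deficient libraries were close together and above every wildtype library, among which wildtype 1 was again the lowest. The fitted log2 fold change was 0.62 (SE 0.17, 95% interval 0.24 to 1.01), or 1.54-fold, the narrowest interval among the 9 genes, and 0.47 without wildtype 1. The coefficient of variation between libraries was 3.71% in the Rroid deficient and 19.2% in the wildtype group.

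Trap1 (ENSMUSG00000005981, chromosome 16), the Hsp90 of the mitochondrial matrix, had 14.7, 55.5 and 37.3 CPM in Rroid deficient libraries, against 35.5, 27.3 and 34.6 CPM in wildtype libraries. The groups overlapped, and the Rroid deficient libraries ran from below to above the whole wildtype range. Its log2 fold change was 0.14 (SE 0.53, 95% interval -1.04 to 1.32), so a difference of about 2-fold either way lay within the interval. Exons of Trap1 overlap those of Dnase1 on the opposite strand, which had 235 reads over all libraries; the library kit does not mark strand, and reads from an overlap cannot be told apart.

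**Figure D1:**
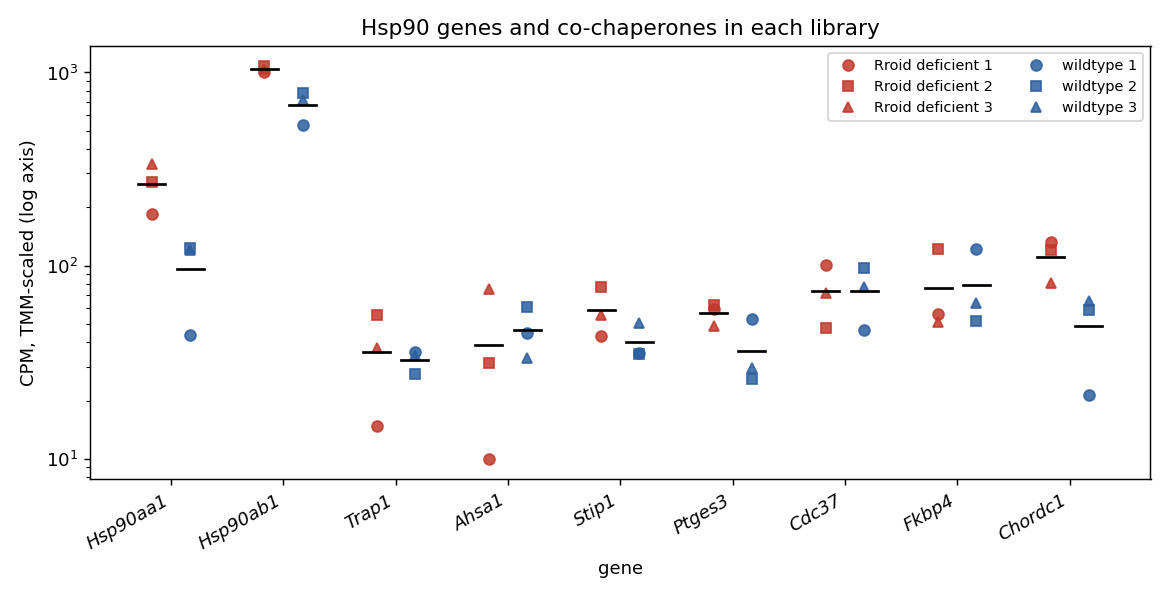
TMM-scaled CPM (log axis) of the 9 genes in each library; red points are Rroid deficient and blue points wildtype libraries, symbols mark the library number, and black bars are group means (n = 3 each). Hsp90aa1, Hsp90ab1 and Chordc1 have every Rroid deficient library above every wildtype library, while the other 6 genes overlap between the groups.

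The stress-inducible form also made up a larger part of cytosolic Hsp90 transcripts. Per kilobase of exon, Hsp90aa1 was 12.3%, 16.1% and 19.8% of both genes together in Rroid deficient libraries, against 5.91%, 10.8% and 11.3% in wildtype libraries. The groups did not overlap, though Rroid deficient 1 and wildtype 3 differed by little. The mean share was 16.0% ± 3.77 in Rroid deficient and 9.33% ± 2.97 in wildtype libraries (SD, n = 3 each). Together both genes had 1310 ± 102 CPM in Rroid deficient and 773 ± 174 CPM in wildtype libraries, most of it from Hsp90ab1. The remaining 7 genes summed to 452 ± 56.2 CPM in Rroid deficient and 356 ± 1.91 CPM in wildtype libraries. The small wildtype SD of that sum arose although the single genes in it had coefficients of variation of 13.9% to 49.0% between wildtype libraries.

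**Figure D2:**
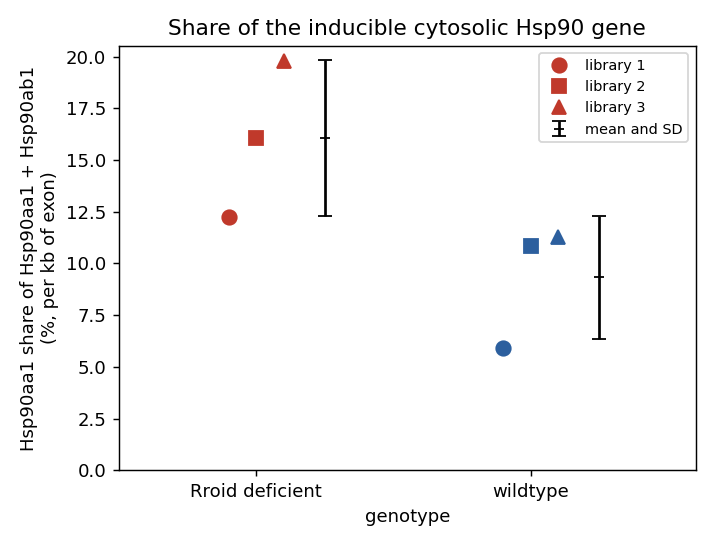
Hsp90aa1 as a percentage of Hsp90aa1 and Hsp90ab1 together, both per kilobase of exon, in each library; black marks are the mean and SD (n = 3 each). Rroid deficient libraries lie between 12.3% and 19.8%, above wildtype libraries at 5.91% to 11.3%.

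The co-chaperones that pass clients to Hsp90 did not move as a block. Stip1 (ENSMUSG00000024966, chromosome 19), the adaptor that bridges Hsp70 and Hsp90, had 43.4, 77.3 and 55.6 CPM in Rroid deficient libraries, against 35.2, 35.0 and 50.2 CPM in wildtype libraries. The groups overlapped only through Rroid deficient 1 and wildtype 3, and its log2 fold change was 0.55 (SE 0.39, 95% interval -0.31 to 1.41), or 0.30 without Rroid deficient 2. Cdc37 (ENSMUSG00000019471, chromosome 9), which brings protein kinases to Hsp90, had 101, 47.3 and 72.0 CPM in Rroid deficient libraries, against 46.6, 97.5 and 77.4 CPM in wildtype libraries. Both groups covered nearly the same range, and its log2 fold change was -0.01 (SE 0.39, 95% interval -0.88 to 0.86).

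Fkbp4 (ENSMUSG00000030357, chromosome 6), a peptidyl-prolyl isomerase of steroid receptor complexes, had 56.4, 122 and 51.2 CPM in Rroid deficient libraries, against 121, 51.9 and 63.9 CPM in wildtype libraries. Each group held 1 library near 120 CPM, and its log2 fold change was -0.05 (SE 0.44, 95% interval -1.04 to 0.94). For Cdc37 and Fkbp4 the sign changed with the library left out or, for Cdc37, with the scaling.

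Neither Ahsa1 nor Ptges3, co-chaperone genes whose products act on the ATPase cycle, lay apart between genotypes. Ahsa1 (ENSMUSG00000021037, chromosome 12), the activator of Hsp90 ATPase, had 9.95, 31.3 and 75.5 CPM in Rroid deficient libraries, against 44.6, 60.7 and 33.0 CPM in wildtype libraries. It was the most variable of the 9 genes among Rroid deficient libraries, with a coefficient of variation of 85.9%. Its log2 fold change was -0.24 (SE 0.64, 95% interval -1.66 to 1.17), and 0.21 without Rroid deficient 1.

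Ptges3 (ENSMUSG00000071072, chromosome 10), which stabilises the closed, ATP-bound dimer, had 59.2, 62.6 and 48.7 CPM in Rroid deficient libraries, against 53.2, 25.8 and 29.4 CPM in wildtype libraries. Wildtype 1 alone reached the Rroid deficient range. Its log2 fold change was 0.65 (SE 0.41, 95% interval -0.26 to 1.57), or 1.03 without wildtype 1. A pseudogene, Ptges3-ps, took about as many reads. It had 45.7, 74.4 and 57.1 CPM in Rroid deficient libraries, against 11.1, 38.2 and 59.9 CPM in wildtype libraries. How reads were divided between the gene and this near-identical copy is uncertain, and the wildtype library with most Ptges3 reads was the one with fewest for the pseudogene.

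Chordc1 (ENSMUSG00000001774, chromosome 9) encodes an Hsp90-binding protein with zinc-binding CHORD domains. It had 132, 120.4 and 81.2 CPM in Rroid deficient libraries, against 21.4, 58.6 and 65.8 CPM in wildtype libraries. Every Rroid deficient library was above every wildtype library, with wildtype 1 the lowest by a wide margin. The fit gave a log2 fold change of 1.19 (SE 0.43, 95% interval 0.24 to 2.15), or 2.29-fold. It was 0.83 without wildtype 1, and 0.69 when Rroid deficient 1 and wildtype 1 were both left out.

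**Figure D3:**
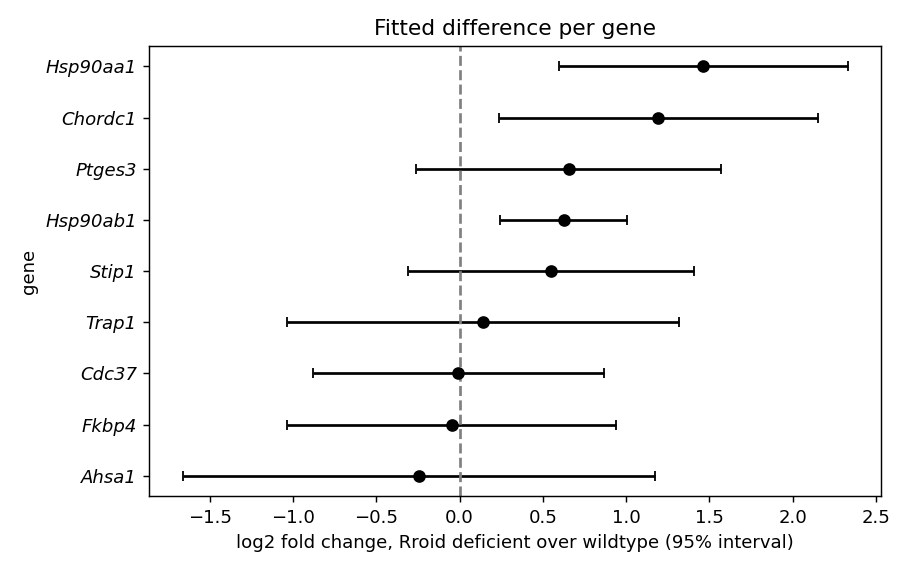
Fitted log2 fold change of each gene, Rroid deficient over wildtype, with its 95% interval (n = 3 libraries per genotype); the dashed line is 0. The intervals of Hsp90aa1, Chordc1 and Hsp90ab1 lie above 0 and those of the other 6 genes include it; these intervals are not adjusted for the 11724 genes tested.

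All 9 genes passed the filter on low counts. In edgeR's quasi-likelihood fit across 11724 genes, 0 of the 9 passed a Benjamini-Hochberg adjusted threshold of 0.05, where 0.0171% of all tested genes did. At an unadjusted p under 0.05, 3 of the 9 were higher, where 2.76% of all tested genes were higher, and 0 of the 9 were lower, where 2.52% were. DESeq2 on the same genes called Hsp90aa1 alone among the 9 as higher, where 0.332% of genes were called higher, and edgeR without a filter on low counts also called it alone, where 0.278% were. In 3 of the 9 genes every Rroid deficient library lay above every wildtype library, where 6.03% of all tested genes lay so. In 0 of the 9 did every Rroid deficient library lie below, as in 6.33% of tested genes. The median log2 fold change of the 9 genes was 0.55, or 0.30 without Rroid deficient 2, and that of all tested genes 0.02; 6 of the 9 values were positive, against 51.6% of all tested genes. These counts come from the contrast on which the genes were chosen and are given as a description only.

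Several of these values depended on libraries 1. Without Rroid deficient 1 and wildtype 1, 6 of the 9 genes had both Rroid deficient libraries above both wildtype libraries: Hsp90aa1, Hsp90ab1, Chordc1, Stip1, Ptges3 and Trap1. With 2 libraries a group, 18.6% of all tested genes lay so. Without Rroid deficient 1 alone, 5 genes lay apart, Ptges3 not among them, where 11.4% of tested genes did. In the fit without both libraries the log2 fold change of Hsp90aa1 was 1.32 and that of Hsp90ab1 0.50, while Fkbp4 stood at 0.57 and Cdc37 at -0.56.

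**Figure D4:**
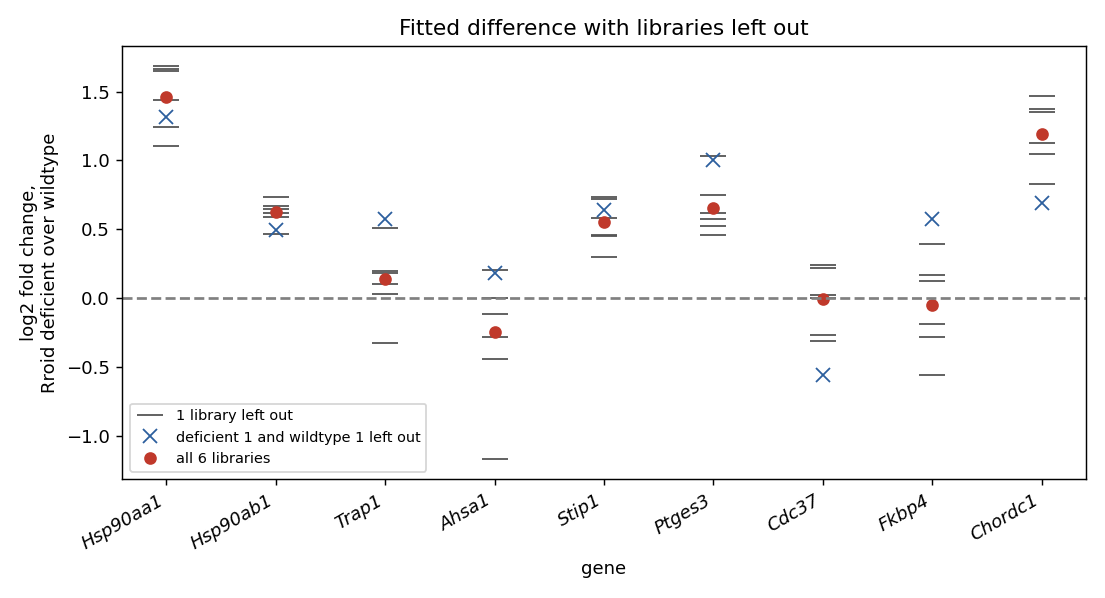
Log2 fold change of each gene, Rroid deficient over wildtype, with all 6 libraries (red points), with each library left out in turn (grey bars) and with Rroid deficient 1 and wildtype 1 left out together (blue crosses). Hsp90aa1, Hsp90ab1, Chordc1, Ptges3 and Stip1 stay above 0 in every fit shown, whereas Trap1, Ahsa1, Cdc37 and Fkbp4 fall on both sides of it.

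Levels of different genes were compared per kilobase of annotated exon. Hsp90ab1 led in both genotypes, with 348 ± 12.9 CPM per kb in Rroid deficient and 226 ± 43.3 CPM per kb in wildtype libraries (SD, n = 3 each), and its libraries overlapped with those of no other gene of the set. Hsp90aa1 was the next in Rroid deficient libraries, at 67.3 ± 19.5 CPM per kb, again without overlap with the gene below it. In wildtype libraries it averaged 24.4 ± 11.5 CPM per kb, below Fkbp4 at 28.3 ± 13.3 CPM per kb, and the libraries of both genes overlapped. In Rroid deficient libraries Stip1, Fkbp4 and Ptges3 followed at 27.9, 27.4 and 25.6 CPM per kb and overlapped with each other. Chordc1 came next at 14.8 CPM per kb, with no library in the range of those 3 genes, and Trap1, Cdc37 and Ahsa1 followed, down to 8.89 CPM per kb, each overlapping with its neighbour. The libraries of Trap1 also reached 21.6 CPM per kb, above the lowest library of Stip1 and of Fkbp4. In wildtype libraries all neighbours below Hsp90ab1 overlapped, down to Chordc1 at 6.48 ± 3.17 CPM per kb. Exon length came from a union of all annotated isoforms, which lowers the value of genes with long rare isoforms.

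Hsp90b1, the Hsp90 of the endoplasmic reticulum, lay below Hsp90ab1 in Rroid deficient libraries and level with it in wildtype libraries. It had 272 ± 17.2 CPM per kb in Rroid deficient and 225 ± 32.5 CPM per kb in wildtype libraries (SD, n = 3 each). As CPM, its libraries read 1155, 1021 and 1116 in the Rroid deficient group, against 823, 838 and 1057 in the wildtype group. The groups overlapped, and the log2 fold change of 0.28 (SE 0.15) did not pass in edgeR's quasi-likelihood test (adjusted p = 0.925).

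Promoter sequence was examined for a known element that heat shock factor 1 binds, inverted repeats of GAA. RefSeq promoters (build GRCm38.p6, 250 bases before to 50 after the annotated start) were matched for Trap1, Ahsa1, Stip1, Ptges3, Cdc37, Fkbp4 and Chordc1; those of Hsp90aa1 and Hsp90ab1 were not analysed here. The element was searched as 2 units, GAANNTTC or TTCNNGAA, and as 3 units, in which a further inverted unit follows after the same gap, on both strands; every 3-unit match also holds 2-unit matches. Chordc1 is shown as the gene with a 3-unit match, Fkbp4 as one with a single 2-unit match and overlapping groups, and Stip1 as one with none. Each sequence runs 5′ to 3′ from 250 bases before the start to 30 after it. Capitals mark heat shock element matches in Chordc1 and Fkbp4, and in Stip1 CCAAT and TATAAA.
Chordc1 promoter, chr9:18292017-18292296, plus strand: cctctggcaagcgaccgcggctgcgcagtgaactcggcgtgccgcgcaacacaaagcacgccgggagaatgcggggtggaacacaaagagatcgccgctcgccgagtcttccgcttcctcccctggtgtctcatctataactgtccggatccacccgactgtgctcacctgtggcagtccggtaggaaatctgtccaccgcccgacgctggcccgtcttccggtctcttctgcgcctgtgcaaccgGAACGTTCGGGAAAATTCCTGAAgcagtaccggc
Fkbp4 promoter, chr6:128438627-128438906, minus strand: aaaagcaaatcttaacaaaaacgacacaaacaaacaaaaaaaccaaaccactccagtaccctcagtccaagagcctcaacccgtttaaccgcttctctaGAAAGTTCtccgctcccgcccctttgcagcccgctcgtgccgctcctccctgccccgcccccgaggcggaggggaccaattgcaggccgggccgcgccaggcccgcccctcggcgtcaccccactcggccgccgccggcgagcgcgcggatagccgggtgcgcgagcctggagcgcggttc
Stip1 promoter, chr19:7039997-7040276, minus strand: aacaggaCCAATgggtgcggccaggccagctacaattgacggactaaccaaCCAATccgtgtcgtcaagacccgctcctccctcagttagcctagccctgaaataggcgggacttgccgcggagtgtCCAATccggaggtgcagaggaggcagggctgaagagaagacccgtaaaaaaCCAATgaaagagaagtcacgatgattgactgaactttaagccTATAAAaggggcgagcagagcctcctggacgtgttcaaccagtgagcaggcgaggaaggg

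In Chordc1 the 3-unit matches overlapped into a single run, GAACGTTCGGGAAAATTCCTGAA, that spans the annotated start, from position -4 to 19 relative to it. A 3-unit match was found in 0.529% of 27025 promoters of this length, and in 0.404% of the 8176 that belong to tested genes. Fkbp4 had 1 match, GAAAGTTC, at -151 to -144, and Cdc37 had 1, TTCCAGAA, at -170 to -163. With Chordc1, 3 of the 7 matched promoters thus held at least 2 units, a pattern present in 15.1% of all promoters and 11.8% of those of tested genes. Trap1, Ahsa1, Stip1 and Ptges3 had none in this window. Among the genes with a match, Chordc1 had separate groups while Fkbp4 and Cdc37 did not. Stip1 held TATAAA at -30 to -25, a motif in 6.56% of promoters of tested genes, and 4 copies of CCAAT, of which at least 1 copy occurs in 38.8% of them. A match describes the letters in the window and not binding.

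Other chaperone genes of the heat shock response were set beside the Hsp90 genes. This list and the lists below were drawn up with earlier results of these data known, so their counts are a description only. Of 22 listed, 19 were tested, 1 passed as higher, 0 passed as lower, and 18 did not pass over all genes in edgeR. DESeq2 on filtered genes called 6 of them, all higher, where 0.332% of genes were called higher, and edgeR without a filter on low counts also called 6 as higher, where 0.278% were. In both these were Hspa1a, Hspa1b, Hspa8, Hsph1, Dnaja1 and Dnajb1. Of the 19, 11 had every Rroid deficient library above every wildtype library, where 6.03% of all tested genes lay so. Hspb1, which was listed but not tested, had 0 reads in every library. Log2 fold changes were positive in 16 of the 19, where 51.6% of all tested genes were positive. They were negative in 3, Hspa4 (-0.30), Bag3 (-0.32) and Dnajb4 (-0.22), each with overlapping groups. The median log2 fold change was 0.60, or 0.46 without wildtype 1 and 0.95 without wildtype 2, against 0.02 for all tested genes. Hspa1a, an inducible Hsp70, was the gene that passed (adjusted p = 0.0308 in edgeR), though no gene passed in edgeR with any 1 library left out. Its counts were 236, 234 and 273 in Rroid deficient libraries, against 2, 4 and 1 in wildtype libraries. Its near-identical copy Hspa1b had counts of 324, 177 and 310 in Rroid deficient libraries, against 17, 11 and 0 in wildtype libraries (edgeR adjusted p = 0.543). Its adjusted p was 1.84e-06 in DESeq2 on filtered genes and 1.39e-05 in edgeR without a filter, and the division of reads between both copies is uncertain.

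The Hsp70 arm that hands clients to Hsp90 through Stip1 held further genes whose groups lay apart without passing in edgeR on filtered genes. Hspa8, the constitutive cytosolic Hsp70, had 293, 342 and 292 CPM in Rroid deficient libraries, against 119.8, 140.3 and 129 CPM in wildtype libraries (1.25 on the log2 scale, SE 0.20, edgeR adjusted p = 0.246). Hsph1, a nucleotide exchange factor of Hsp70, had 209, 301 and 205 CPM in Rroid deficient libraries, against 125, 63.0 and 78.2 CPM in wildtype libraries (log2 fold change 1.42, SE 0.30). Of the J-domain co-chaperone genes, Dnaja1 had 145 ± 10.4 CPM in Rroid deficient and 59.0 ± 10.7 CPM in wildtype libraries, and Dnajb1 had 235 ± 58.1 CPM in Rroid deficient and 103 ± 24.8 CPM in wildtype libraries (SD, n = 3 each). Hspe1, the mitochondrial co-chaperonin, is not part of that arm, and its groups also lay apart. It had 123, 47.1 and 39.4 CPM in Rroid deficient libraries, against 34.0, 20.6 and 23.0 CPM in wildtype libraries. The edgeR adjusted p was 0.543 for Hsph1 and Dnaja1, 0.572 for Dnajb1 and 0.906 for Hspe1. In DESeq2 on filtered genes it was 3.59e-05 for Hspa8, 0.0044 for Hsph1 and Dnaja1, 0.0158 for Dnajb1 and 0.277 for Hspe1. In edgeR without a filter it was 0.00158 for Hspa8, 8.23e-04 for Hsph1, 0.0314 for Dnaja1, 0.0144 for Dnajb1 and 0.203 for Hspe1. Hsf1, the gene of heat shock factor 1, which is mainly controlled at the protein level, had 29.5, 23.3 and 46.9 CPM in Rroid deficient libraries, against 9.59, 38.1 and 24.9 CPM in wildtype libraries. Its groups overlapped (log2 fold change 0.46, SE 0.59, edgeR adjusted p = 0.938). The fold change of Hsp90aa1 was thus of the size seen in Hspa8, Hsph1 and Dnaja1, and that of Hsp90ab1 was smaller; these differences between genes were not tested.

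Further Hsp90 co-chaperones and adaptors, with Hsp90b1, were tested for 31 of 31 listed genes. None passed in either direction, with 0 called by DESeq2 and 0 at an unadjusted p under 0.05 in edgeR, where 2.76% of all tested genes were higher and 2.52% lower. The median log2 fold change was -0.11, with 14 values positive and 17 negative, set against a median of 0.55 for the 9 genes. Tti2, part of a complex that works with Hsp90 on large kinases, was the single gene of the 31 whose groups lay apart, where 6.03% of all tested genes lay above and 6.33% below. It had 15.6, 10.1 and 35.3 CPM in Rroid deficient libraries, against 37.9, 64.4 and 35.9 CPM in wildtype libraries. The nearest libraries of the groups were almost level, and the log2 fold change of -1.18 (SE 0.56) did not pass (edgeR adjusted p = 0.915). The list spanned log2 fold changes from -1.18 for Tti2 to 1.19 for Flcn.

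Genes of Hsp90-dependent proteins were compared as a list of 28, of which 26 were tested and none passed in either direction. The list included Pdk1 (log2 fold change 0.49), which in mouse encodes pyruvate dehydrogenase kinase 1. The client kinase PDK1 is encoded by Pdpk1, which was not in the list, and the counts below include Pdk1. The median log2 fold change was 0.07, with 14 positive and 12 negative values, where 51.6% of all tested genes were positive. At an unadjusted p under 0.05 in edgeR 1 of the 26 was higher and 2 were lower, where 2.76% of all tested genes were higher and 2.52% lower. DESeq2 called 1, Kit, as higher, where 0.332% of genes were. Kit, a receptor tyrosine kinase, had 210.3, 157 and 133 CPM in Rroid deficient libraries, against 42.2, 75.1 and 64.8 CPM in wildtype libraries (1.46 on the log2 scale, SE 0.31, edgeR adjusted p = 0.543). Ikbkb, a kinase of the NF-kappaB pathway, also lay higher throughout, at 102, 203 and 102 CPM in Rroid deficient libraries, against 58.0, 94.2 and 90.3 CPM in wildtype libraries (edgeR adjusted p = 0.914).

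Of the 26 tested genes of this list, 3 had every Rroid deficient library below every wildtype library, as in 6.33% of all tested genes. In 2 of the 26 every Rroid deficient library lay above, as in 6.03% of all tested genes. Jak2, a cytokine receptor kinase, had 72.4, 71.6 and 92.4 CPM in Rroid deficient libraries, against 169.7, 114 and 119 CPM in wildtype libraries (-0.77 on the log2 scale, SE 0.28, edgeR adjusted p = 0.906). Akt1, a kinase of growth factor signalling, had 21.3, 32.8 and 34.4 CPM in Rroid deficient libraries, against 78.2, 46.3 and 47.0 CPM in wildtype libraries (edgeR adjusted p = 0.914). Cdk9, a kinase of transcription elongation, had 18.6, 13.9 and 21.7 CPM in Rroid deficient libraries, against 59.2, 35.4 and 23.0 CPM in wildtype libraries (edgeR adjusted p = 0.914). Nr3c1, the glucocorticoid receptor and a classical client, had 143 ± 24.3 CPM in Rroid deficient and 139 ± 9.53 CPM in wildtype libraries (SD, n = 3 each; log2 fold change 0.03, SE 0.23, edgeR adjusted p = 0.991).

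**Figure D5:**
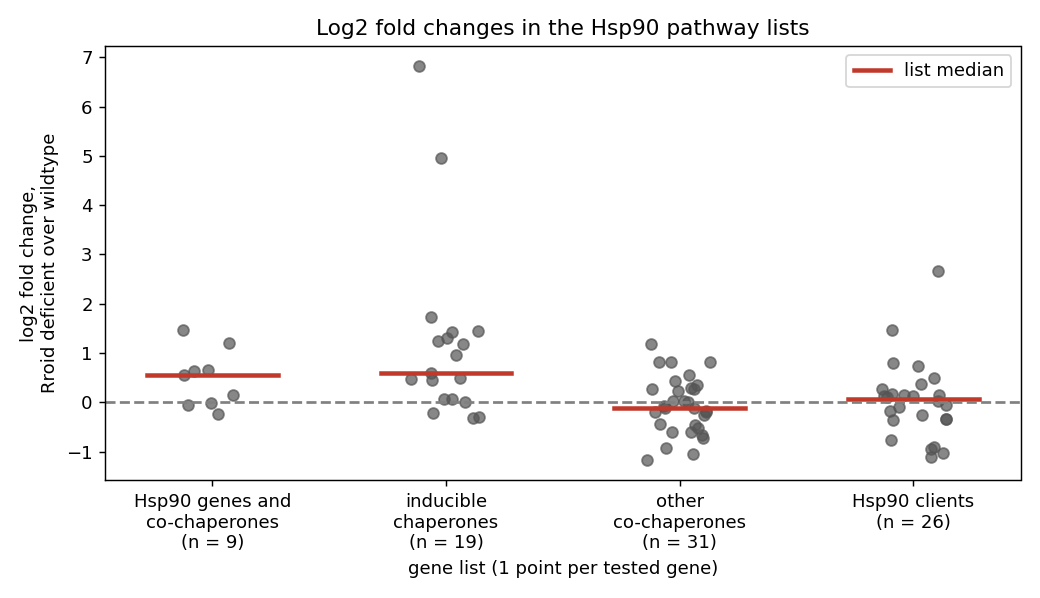
Log2 fold change, Rroid deficient over wildtype, of each tested gene in the 4 lists; each point is 1 gene and red bars are list medians. Medians are 0.55 for the Hsp90 genes and co-chaperones, 0.60 for inducible chaperones, -0.11 for other co-chaperones and 0.07 for Hsp90 clients.

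The profile over the 6 libraries was compared between genes as the root mean square difference of centred log2 CPM, over the 6155 genes that averaged 20 CPM or more. Near to Hsp90ab1 were Dock10 (0.05), Ptpn4 (0.06), Upf1 (0.07) and Psme2b (0.11). The nearest to Hsp90aa1 were Itgad (0.29), the unnamed gene ENSMUSG00000084914 (0.29), Myo6 (0.30), Fam126b (0.31) and Camk2b (0.33). Within the set, Chordc1 was nearest to Hsp90aa1 (0.48, rank 43 among all genes compared) and Stip1 nearest to Hsp90ab1 (0.30, rank 481). Ahsa1 was farthest from both (1.37 from Hsp90aa1 and 1.09 from Hsp90ab1). Hsp90aa1 and Hsp90ab1 differed by 0.61. Hsp90ab1 was at rank 198 for Hsp90aa1, and Hsp90aa1 at rank 3544 for Hsp90ab1. These distances rest on 6 libraries and describe likeness only.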

How the data were processed

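RNA from splenic NK cells was purified by TRIzol and columns; libraries were made with an Ovation amplification kit and read from 1 end, per the labels' protocols. Builds NCBIM37 and mm9 and the tools TopHat2 2.1.0, Trimmomatic 0.33, DESeq2 and HTSeq 0.6.1 are named in the submitters' processing notes, without order, settings or strand option. The authors deposited raw read counts per Ensembl gene, 1 file per library. In each file 5 closing rows that name no gene held 80.0% to 84.4% of listed reads and were left out. With reads of no unique alignment set aside, 72.8% to 79.1% of listed reads fell in no annotated feature. The cause was not tested. Symbols (32919 of 37991 genes) and exon lengths came from a GRCm38 annotation, another build than that of the counts.

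The fit used edgeR 4.0.16 in R 4.3.3 with TMM, filterByExpr and a quasi-likelihood test of genotype without a block; 11724 genes were tested, with Benjamini-Hochberg adjustment at 0.05. SE were derived from log2 fold change and F. The fit was also run on simulated counts that shared a mean profile, with set changes in some genes. No simulated library was given extra zeros, so that run cannot show how the fit handles zero-rich libraries. The limit allowed by 0 reads, 3 counts, was 0.326 to 0.515 CPM before TMM, for counting error only. Every pair of replicate libraries differed beyond sampling noise (chi-square of 22.1 or more per degree of freedom, genes with at least 20 reads).

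Alternatives were RLE factors, DESeq2 1.42.0 with and without filterByExpr, limma-voom (limma 3.58.1), no filter or a stricter one (10 counts in 3 libraries and a mean of 2 CPM), a block for replicate number, leaving out each library, and both libraries with most zeros removed. Genes of the set and of the lists were chosen with earlier results of these data known. Named beside the 9 genes were Id2, Hsp90b1, Hspa1a, Hspa8, Hsph1, Dnaja1, Dnajb1, Hsf1 and Nr3c1; per list up to 4 passing genes, up to 6 with separate groups at a mean of 20 CPM or more, or the 2 of smallest p; and the 5 nearest profiles to each cytosolic Hsp90 gene; some items these rules name are not reported here. Ptges3-ps, Flcn, Dnase1, Hspa4, Bag3, Dnajb4, Hspb1 and Pdk1 were added after their values were seen.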

Additional observations from a re-analysis of the deposited data

How the results depend on the processing

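The log2 fold changes of Hsp90aa1, Hsp90ab1, Chordc1, Ptges3 and Stip1 kept their sign in each of 14 alternatives, between 1.10 and 1.69, 0.47 and 0.74, 0.69 and 1.47, 0.46 and 1.03, and 0.30 and 0.74. Hsp90aa1 passed in DESeq2 on filtered genes (adjusted p = 0.0206) and in edgeR without a filter (2.86e-04) and in no other alternative (adjusted p 0.0725 to 0.999); the cause was not tested. The other genes changed sign in some fits, none of them called. With 1 library left out, Ahsa1 ranged from -1.17 to 0.21, Cdc37 from -0.31 to 0.24, Fkbp4 from -0.56 to 0.39 and Trap1 from -0.32 to 0.51. Without Rroid deficient 1 and wildtype 1, Ahsa1 stood at 0.18 and Fkbp4 at 0.57. Cdc37 stood at 0.0010 with RLE factors and with DESeq2 on filtered genes, and at 0.0021 with DESeq2 on all genes; Trap1 stood at -0.045 with limma-voom.

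Calls over all genes numbered 65 with DESeq2 on filtered genes, 88 with DESeq2 on all genes, 98 in edgeR without a filter and 1 with limma-voom, against 2 in the fit reported. They numbered 0 with any 1 library left out (508 to 966 genes at an unadjusted p under 0.05) and 0 without Rroid deficient 1 and wildtype 1 (767). Leaving out 1 library gave medians of 0.30 to 0.62 for the 9 genes, 0.46 to 0.95 for inducible chaperones, -0.15 to -0.03 for other co-chaperones and -0.04 to 0.10 for clients, and 3 to 5 of the 9 genes with every Rroid deficient library above, where 10.1% to 12.4% of all tested genes lay so; 6 lay so without Rroid deficient 1 and wildtype 1, where 18.6% of all tested genes did. The client median was -0.01 with limma-voom and -0.03 with the replicate block.

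With the replicate block, 0 genes were called (455 at an unadjusted p under 0.05), Hsp90aa1 had 1.56 and Trap1 -0.033. Same-numbered libraries correlated at -0.04 to -0.01 in their deviations from group means, so the numbers were not taken to pair the samples, although libraries 1 of both genotypes had the most tested genes at 0. No library correlated best with its own number. Genes near 40 CPM had an SE of about 0.39 to 0.64 on the log2 scale, so a 2-fold difference could go undetected there. The same held at higher levels. Hspa8 (2.38-fold, edgeR adjusted p = 0.246) and Hsp90aa1 (2.76-fold, edgeR adjusted p = 0.746) did not pass in the fit reported, which called 2 genes in all. A gene that did not pass is therefore not shown to be unchanged.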
